A study of Mus musculus with 56 samples.

Results

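Liver-specific miR-122 knockout mice were compared with and without an added dose of Cre recombinase by small RNA sequencing. The 4 livers are the 2 labelled LKO_flox and the 2 labelled LKO_floxCre, chosen by those genotype labels from 42 small RNA libraries and 56 libraries in all. All 4 are liver of the 129Sv/J strain background. LKO is taken here as the liver-specific knockout described with the study, in which loxP sites flank miR-122 and Cre is driven by the Albumin promoter, which is active in hepatocytes and their fetal precursors. LKO_floxCre is read as the same knockout after recombinant AAV-Cre, a viral vector that the study gave by tail vein with Cre under the broadly active Ef1a promoter. The labels name the groups only by these words, and the age, sex, vector dose and time after the vector are not given for the LKO mice. Further livers served as reference: 3 of miR-122-floxed mice that were uninjected (day 0), and 3 of miR-122-floxed mice 45 days after AAV-Cre (day 45). Floxed livers 7, 14 and 21 days after AAV-Cre, 3 each, entered the limma fits and their estimate of the spread. Single floxed livers 100 and 200 days after AAV-Cre are given for miR-122 only. The floxed mice carry the same loxP sites as the LKO mice without the Albumin-Cre transgene. The replicates are lettered A and B (A to C in the floxed groups), and the labels do not say that a shared letter pairs livers or that each is a separate mouse, so the p-values below measure only the spread between these samples.

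MicroRNAs are RNAs of about the length of the sequences printed below that guide Argonaute proteins to messenger RNAs, mainly by pairing of the seed, bases 2 to 8 from the 5′ end. miR-122 is made by hepatocytes and dominates the microRNA content of adult liver, where it represses many transcripts and supports cholesterol and lipid metabolism. Cre removes only the DNA between loxP sites, so a cell that never expressed or received Cre, or that recombined incompletely, can still make miR-122. Other hepatocyte microRNAs, epithelial microRNAs of the miR-200 family, which is expressed by bile duct cells among other epithelia, and microRNAs of imprinted loci were followed alongside it.

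The mature sequences that carry the comparisons are shown with the seed in capitals. These 5 of the 11 hepatocyte list members that were lower in both LKO_floxCre livers have different seeds:
mmu-miR-192-5p: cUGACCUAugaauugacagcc
mmu-miR-194-5p: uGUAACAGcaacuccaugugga
mmu-miR-193a-3p: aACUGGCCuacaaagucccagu
mmu-miR-802-5p: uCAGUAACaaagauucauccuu
mmu-miR-22-3p: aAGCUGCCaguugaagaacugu

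The miR-200 family falls into 2 seed groups, AAUACUG in the first 3 sequences and AACACUG in the last 2:
mmu-miR-200b-3p: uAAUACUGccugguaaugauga
mmu-miR-200c-3p: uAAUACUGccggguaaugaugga
mmu-miR-429-3p: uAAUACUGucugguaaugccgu
mmu-miR-200a-3p: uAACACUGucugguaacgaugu
mmu-miR-141-3p: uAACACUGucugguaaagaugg

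Members of the imprinted loci that are described by name each have a seed of their own:
mmu-miR-376a-3p: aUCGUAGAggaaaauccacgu
mmu-miR-127-3p: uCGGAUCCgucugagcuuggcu
mmu-miR-483-3p: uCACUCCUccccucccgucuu
mmu-miR-675-5p: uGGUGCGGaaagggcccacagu

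Sequences and positions are from RefSeq on GRCm38.p6, which was used for these only. miR-192 lies at chr19:6264857-6264877 (plus strand) and miR-194-2 beside it at chr19:6264658-6264679 (plus strand). The miR-193a arm lies at chr11:79712009-79712030 (plus strand), the miR-802 arm at chr16:93369737-93369758 (plus strand), and the miR-22 arm at chr11:75463772-75463793 (plus strand), within the long noncoding gene Mir22hg. Of the miR-200 family, miR-429, miR-200a and miR-200b share a stretch of chromosome 4, with miR-200b at chr4:156055685-156055706 (minus strand), and miR-200c and miR-141 lie together on chromosome 6, with miR-200c at chr6:124718324-124718346 (minus strand). miR-376a at chr12:109723824-109723844 (plus strand) and miR-127 at chr12:109592888-109592909 (plus strand) belong to the imprinted Dlk1-Dio3 cluster, chr12qF1, and miR-127 overlaps the span of Rtl1. miR-483 lies within Igf2 at chr7:142654932-142654952 (minus strand), and miR-675 within H19 at chr7:142577112-142577133 (minus strand).

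The table gives 1 value per hairpin, so reads of both arms are pooled, in RPM (reads scaled to a fixed total per library) with 1 added to each value. After the 1 was subtracted, LKO_flox livers held 362883 and 525675 microRNA reads and LKO_floxCre livers 356616 and 273468. The uninjected libraries held 618498 to 808302 reads and the day 45 libraries 80092 to 533633. miR-122 is given as a share of all microRNA reads. Every other microRNA is given as RPM of the reads other than miR-122, called RPM from here on, because miR-122 takes 59.2% to 73.3% of the reads of an uninjected liver.

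A small residue of miR-122 remained in the LKO_flox livers and a smaller one in the LKO_floxCre livers. miR-122 made up 9.38% of reads in LKO_flox A (95% Wilson interval 9.29% to 9.48%) and 3.09% in LKO_flox B (3.04% to 3.13%). In LKO_floxCre it made up 0.837% in liver A (0.808% to 0.868%, 2986 reads) and 1.11% in liver B (1.08% to 1.15%, 3048 reads). The intervals cover counting error only, and the livers within each group differed by more than that. Both LKO_floxCre livers lay below both LKO_flox livers, with means of 0.976% ± 0.196 and 6.23% ± 4.45 (SD, n = 2 each). The ratio of the means was 6.39, and the ratio of the geometric means 5.57 (log2 difference -2.48). The size depended on the LKO_flox liver, since the log2 difference was -1.68 without LKO_flox A and -3.28 without LKO_flox B. With 2 livers against 2, the exact two-sided permutation test gave p = 0.333, the smallest it can give. miR-122 over all reads was also fitted with the other microRNAs by limma, which borrows its spread from 260 microRNAs and 19 libraries. The log2 difference was then -2.48 ± 0.52 (SE) and the adjusted p 0.032. That spread comes mostly from the other groups, and relative to its mean LKO_flox spread more than any of them. Day 0 held 66.4% ± 7.06 and day 7 52.0% ± 3.31, against 6.23% ± 4.45 in LKO_flox. The borrowed SE may therefore be too small for the LKO livers. In bulk liver, fewer miR-122-expressing cells and less miR-122 per cell cannot be told apart.

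The uninjected livers set the scale of this residue. They held 66.4% ± 7.06 miR-122 (SD, n = 3), so the mean share was 10.6 times lower in LKO_flox and 68.0 times lower in LKO_floxCre. A share compresses high levels. Counted per read of any other microRNA, miR-122 stood at 2.06 ± 0.650 in uninjected livers, 0.0677 ± 0.0507 in LKO_flox and 0.00986 ± 0.00200 in LKO_floxCre, 209 times lower than uninjected. The day 45 livers, which received AAV-Cre without a prior Albumin-Cre deletion, held 0.908%, 0.383% and 1.23%, and both LKO_floxCre livers fell inside that range. The single livers at day 100 and day 200 held 4.46% and 19.1%, above both LKO_floxCre livers.

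**Figure D1:**
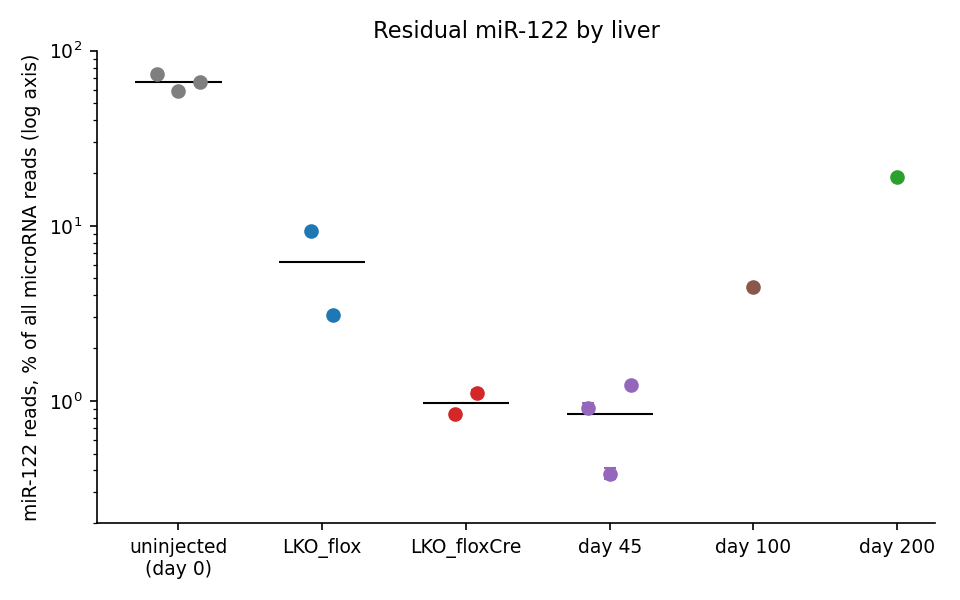
Share of microRNA reads that are miR-122 (percent, log axis) in each liver, with one point per library, 95% Wilson intervals mostly hidden by the points, and a black line at the mean of groups with more than one liver. The LKO_floxCre livers, at 0.837% and 1.11%, lie below both LKO_flox livers and within the spread of day 45.

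The gap between the groups was narrower when miR-122 was set against other hepatocyte microRNAs in place of all reads. Per read of a 14-member list of hepatocyte microRNAs (miR-192, miR-194, miR-22, miR-193 and others described next), miR-122 counted 1.29 in LKO_flox A and 0.313 in LKO_flox B. In LKO_floxCre it counted 0.202 in liver A and 0.248 in liver B. The groups still did not overlap, and the ratio of geometric means was 2.84 (exact two-sided permutation p = 0.333), but LKO_flox B was close to the LKO_floxCre livers on this scale. Uninjected livers counted 35.9, 9.47 and 39.1, and day 45 livers 0.114, 0.131 and 0.271.

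Across the 259 microRNAs other than miR-122 whose mean reached 10 RPM, limma called none different between LKO_floxCre and LKO_flox at an adjusted p of 0.05 (0.0% called). At an unadjusted p under 0.05 there were 15 (5.79%), 5 higher and 10 lower, and the smallest adjusted p was 0.42. The median log2 difference was 0.06, and the median SE of a difference 0.86, so only large differences could have been called with 2 livers a group. The median moved to 0.14 when levels were taken over all reads and to 0.22 when libraries were centred on their medians. In 88 of the 259 (34.0%) the 2 groups did not overlap: 48 were higher in both LKO_floxCre livers (18.5%) and 40 lower (15.4%). None of the single microRNA differences given in the following paragraphs for LKO_floxCre against LKO_flox passed the test, and their values are descriptions of these 4 livers.

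**Figure D2:**
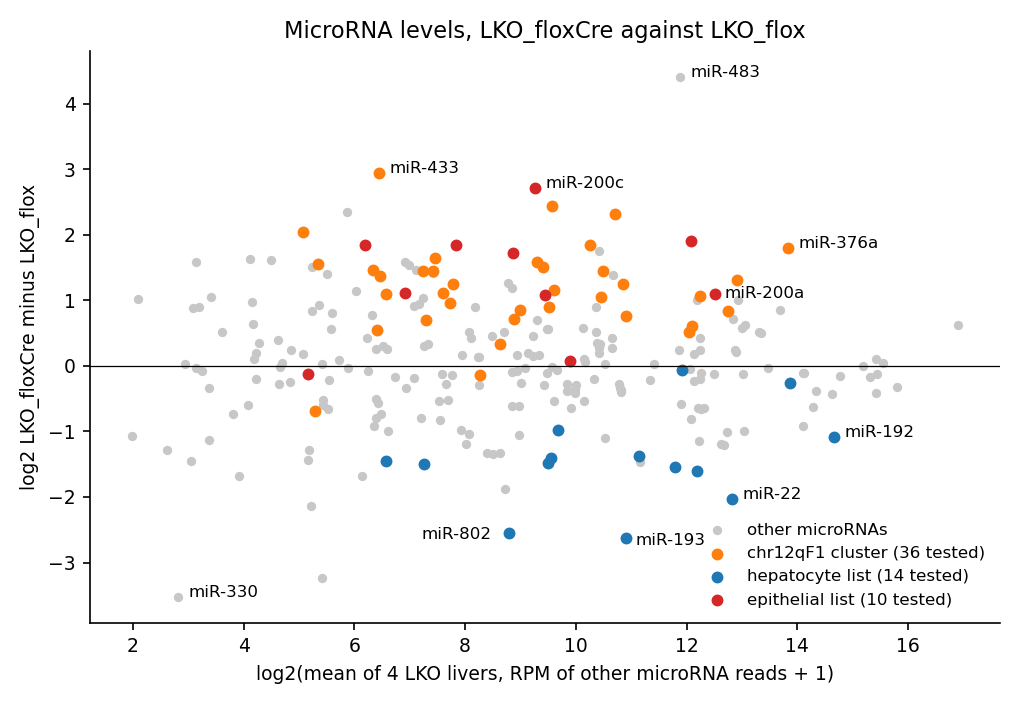
Log2 difference between LKO_floxCre and LKO_flox for the 259 microRNAs tested, against the log2 mean level of the 4 LKO livers. Most hepatocyte list members lie below 0 and most epithelial and chr12qF1 members above it, and none passed limma's adjusted test.

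Most hepatocyte microRNAs stood lower in the LKO_floxCre livers, beyond miR-122 itself. Summed over the 14 members, the list made up 8.0% and 10.2% of the other reads in LKO_flox and 4.18% and 4.55% in LKO_floxCre, with means of 9.10% ± 1.55 and 4.37% ± 0.258 (SD, n = 2 each). In 11 of the 14 both LKO_floxCre livers lay below both LKO_flox livers, against 15.4% of all microRNAs tested. The median log2 difference of the list was -1.47, against 0.06 for all tested. None was called, and 5 had an unadjusted p under 0.05, all lower (3.86% of all tested were). The counts rest on fewer than 14 separate molecules, because miR-194-1 and miR-194-2 give the same mature sequence, as do miR-365-1 and miR-365-2, and how reads shared by such hairpins were counted is not given in the sources used here. With each LKO liver left out in turn, 12 of 14 were apart and the median stayed between -1.24 and -1.78, while 25.5% to 39.8% of all tested were then apart in that direction.

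miR-193 showed the widest gap of the list. It stood at 4358 and 2204 RPM in LKO_flox A and B and at 345 and 721 RPM in LKO_floxCre A and B (log2 difference -2.63 ± 1.12 SE, limma adjusted p = 0.80). Both LKO_floxCre livers were several times below the lower LKO_flox liver. miR-802, a hepatocyte microRNA tied to glucose and insulin handling, stood at 909 and 610.4 RPM in LKO_flox and 136 and 118 RPM in LKO_floxCre (log2 -2.55 ± 1.02, adjusted p = 0.80). miR-22, abundant in liver and known for effects on lipid metabolism, stood at 14724 and 8664 RPM in LKO_flox and 2585 and 2969 RPM in LKO_floxCre (log2 -2.03 ± 1.13, adjusted p = 0.85). In both of these the groups did not overlap, and the LKO_flox livers differed more from each other than the LKO_floxCre livers did.

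miR-192 and miR-194-2, which lie beside each other in the genome, were apart in the same direction. miR-192, the most abundant of the list, stood at 28889 and 41919.9 RPM in LKO_flox and 14996 and 18049.7 RPM in LKO_floxCre (log2 -1.08 ± 0.64). miR-194-2 stood at 6921 and 7131 RPM and 1855 and 2866 RPM (log2 -1.61 ± 0.76). The second copy, miR-194-1, was also apart, at 2877 and 3651 RPM and 1111 and 1416 RPM.

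miR-378, encoded in an intron of the coactivator gene Ppargc1b, stood at 3515 and 7125 RPM in LKO_flox and 2112 and 1394 RPM in LKO_floxCre (log2 -1.54 ± 0.54, adjusted p = 0.61). miR-365-1 stood at 1432 and 726 RPM and 342 and 388 RPM, and miR-455 at 952 and 1203 RPM and 469 and 632 RPM. miR-33, encoded within Srebf2 and known to repress cholesterol export, was low, at 213 and 68.7 RPM and 28.2 and 66.5 RPM, and its groups were apart by a narrow margin. The 3 members whose groups overlapped were miR-148a, miR-101a and miR-101b. miR-148a stood at 310.2 and 129.6 RPM in LKO_flox and 36.8 and 133 RPM in LKO_floxCre, with LKO_flox B and LKO_floxCre B nearly equal. miR-101b, the second most abundant of the list, stood at 10887 and 22562 RPM and 12106 and 14056 RPM.

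Most microRNAs of the epithelial list stood higher in the LKO_floxCre livers. The 10-member list, which holds the miR-200 family, the miR-183 cluster, miR-31 and miR-375, made up 1.06% and 0.542% of the other reads in LKO_flox and 1.96% and 1.77% in LKO_floxCre, with means of 0.802% ± 0.367 and 1.87% ± 0.137 (SD, n = 2 each). In 7 of 10 both LKO_floxCre livers lay above both LKO_flox livers, against 18.5% of all tested, and in none below. The 7 are not separate units, since they come from the miR-200 stretches of chromosomes 4 and 6 and the miR-183 cluster. The list leaves out miR-203 and miR-205, whose log2 differences were -1.05 ± 0.77 and 0.30 ± 1.03 (SE). The median log2 difference was 1.42. None was called, and 3 had an unadjusted p under 0.05, all higher (1.93% of all tested were). Leaving out each LKO liver in turn left 7 to 9 of 10 apart, against 33.2% to 37.1% of all tested, with medians of 0.90 to 2.23, the lowest without LKO_flox B.

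All 5 members of the miR-200 family, which represses ZEB transcription factors and so maintains the epithelial state, were among those 7. miR-200c stood at 189 and 137 RPM in LKO_flox and 1100.0 and 1021 RPM in LKO_floxCre, the widest gap of the list, with close livers in each group (log2 2.71 ± 0.85, adjusted p = 0.57). miR-141, transcribed with it, stood at 137 and 66.8 RPM and 435 and 274 RPM (log2 1.84 ± 1.15). The pair on chromosome 6 was thus apart in both members, although miR-141 rests on only 34 to 154 reads a liver.

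On chromosome 4, miR-200b stood at 3999 and 687 RPM in LKO_flox and 5155 and 7525 RPM in LKO_floxCre (log2 1.91 ± 0.84, adjusted p = 0.80). Its gap depended mainly on LKO_flox B, since LKO_flox A was near LKO_floxCre A. miR-200a stood at 3674 and 3518 RPM and 10389 and 5665 RPM (log2 1.09 ± 0.64), and miR-429 at 474 and 399 RPM and 1205 and 710.0 RPM (log2 1.09 ± 0.73). In both of these the LKO_flox livers were close together and LKO_floxCre A was the highest. Summed by the seeds printed above, AAUACUG carriers (miR-200b, miR-200c, miR-429) stood at 4662 and 1223 RPM in LKO_flox and 7459.8 and 9256 RPM in LKO_floxCre. Much of that gap came from LKO_flox B, as for miR-200b. AACACUG carriers (miR-200a, miR-141) stood at 3810.3 and 3584 RPM and 10825 and 5939 RPM, with the LKO_flox livers close together.

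The remaining epithelial members differed among themselves. miR-182 stood at 349.7 and 102 RPM in LKO_flox and 382 and 1035 RPM in LKO_floxCre, and miR-183 at 48.7 and 17.6 RPM and 87.6 and 133 RPM, both without overlap. miR-96 of the same cluster overlapped, at 113 and 27.4 RPM and 50.9 and 288 RPM. miR-31 also overlapped, at 1596 and 439.7 RPM and 763 and 1021 RPM. miR-375, a marker of islet and other endocrine cells as well as epithelia, rested on 4 to 21 reads and overlapped.

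**Figure D3:**
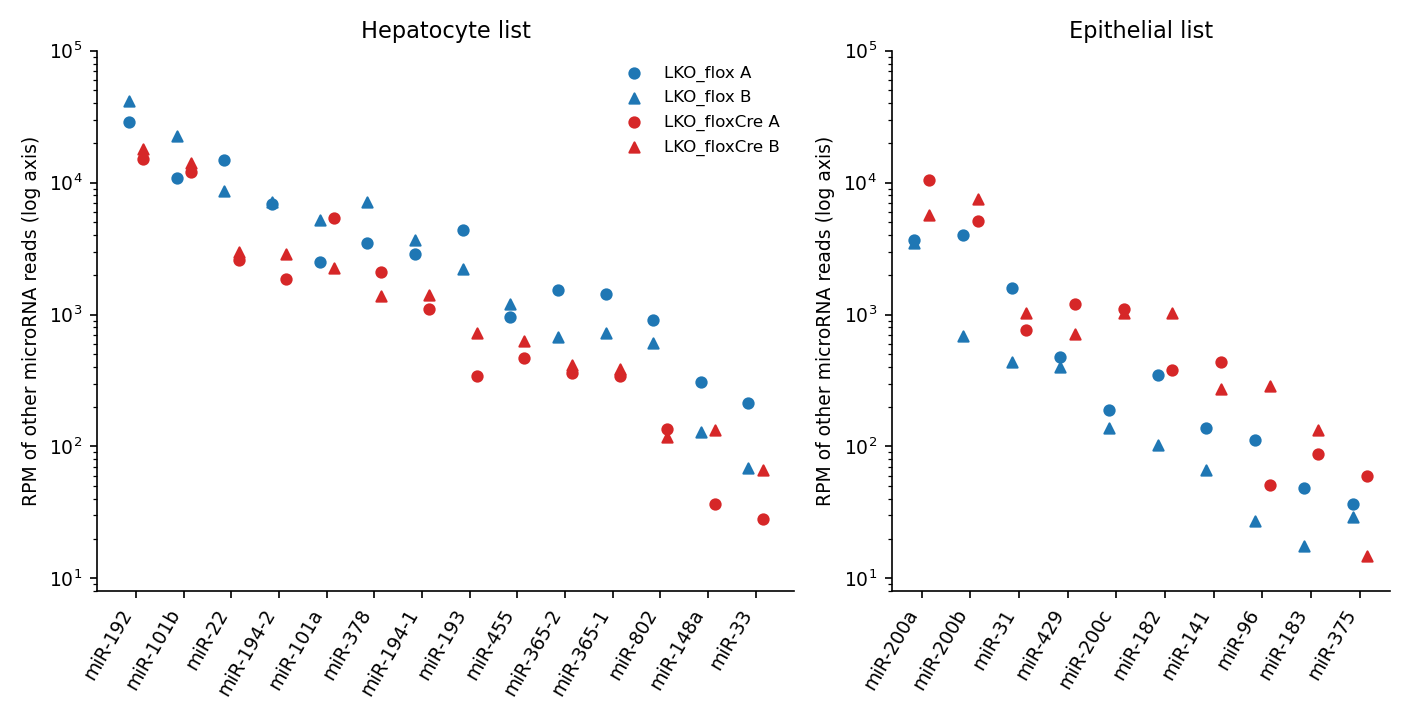
Level of each hepatocyte list member (left) and epithelial list member (right) in the 4 LKO livers, in RPM of microRNA reads other than miR-122 on a log axis, ordered by mean level; blue is LKO_flox, red LKO_floxCre, circles replicate A and triangles replicate B. The red points lie below both blue points for 11 of 14 hepatocyte members and above both for 7 of 10 epithelial members.

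The microRNAs of chr12qF1, an imprinted cluster that is expressed from the maternal chromosome in the embryo and largely silent in adult liver, were abundant in 3 of the 4 LKO livers. They made up 1.49% of the other reads in LKO_flox A and 6.98% in LKO_flox B, and 6.02% and 9.23% in LKO_floxCre A and B. LKO_flox B lay between the LKO_floxCre livers, so the groups overlapped, and LKO_flox A stood below the other three. The log2 difference of the sums was 1.21 (p = 0.667 by exact two-sided permutation, where 0.333 is the least it can give). Of 52 listed members 36 were tested, and 4 had no reads in any LKO liver. None was called, and 11 of 36 were higher in both LKO_floxCre livers than in both LKO_flox livers, against 18.5% of all tested, and 1 was lower.

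The count for this cluster depended on the choice of LKO_flox liver. Against LKO_flox A alone, 34 of 36 members were higher in both LKO_floxCre livers, while 34.7% of all tested were. Against LKO_flox B alone, 11 were higher (30.6%) and 7 lower (19.4%), while 37.1% and 25.5% of all tested were. The median log2 difference, 1.20 with all livers, was 0.37 without LKO_flox A, 2.24 without LKO_flox B, 1.67 without LKO_floxCre A and 0.44 without LKO_floxCre B. Without LKO_floxCre A, 24 of 36 were apart, while 35.5% of all tested were. Within LKO_flox, 33 of the 36 were higher in liver B than in liver A. The share of all tested microRNAs with that order was not counted. The members belong to a single cluster, so this describes a single difference between these livers.

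miR-376a was the most abundant member. It stood at 3114 and 12086 RPM in LKO_flox and 18203 and 24902 RPM in LKO_floxCre (log2 1.79 ± 0.79, adjusted p = 0.80), and its groups did not overlap. miR-341 at 131 and 402 RPM and 1298 and 1213 RPM, and miR-369 at 277 and 852 RPM and 1411 and 4145 RPM, were also apart. miR-433 had the largest fitted difference of the cluster (log2 2.93 ± 1.87) but rested on 1 read in LKO_flox A, with 3.09 and 74.6 RPM in LKO_flox and 130.1 and 137 RPM in LKO_floxCre. miR-666 stood at 6.07 and 9.80 RPM and 11.3 and 104 RPM, apart on few reads in every liver but LKO_floxCre B. The cluster spans 180 kb from its first to its last placed hairpin.

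Other abundant members overlapped between the groups. miR-127, which is antisense to the imprinted gene Rtl1 and cleaves its transcript, stood at 2278 and 9018 RPM in LKO_flox and 9139.5 and 7159 RPM in LKO_floxCre. miR-136 stood at 1195 and 9491 RPM and 4437 and 15587 RPM, and miR-376b at 867 and 8254 RPM and 3357 and 4345 RPM. In all 3, LKO_flox A was the lowest liver, and for miR-376b LKO_flox B was the highest. miR-154 showed the same order, with 505 and 8711 RPM in LKO_flox and 2610.1 and 7433 RPM in LKO_floxCre.

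**Figure D4:**
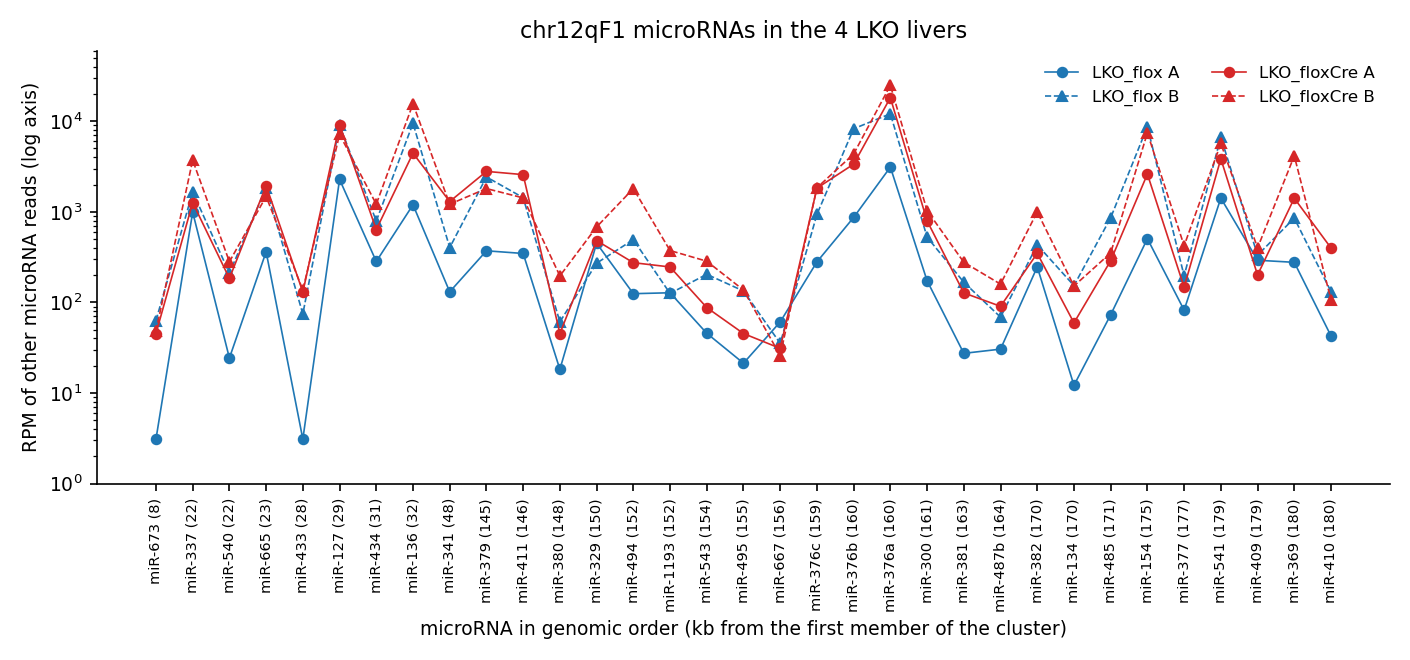
Level of the 33 tested chr12qF1 microRNAs that could be placed, in genomic order with the distance in kb from the first member of the cluster, in RPM of other microRNA reads on a log axis, for the 4 LKO livers (blue LKO_flox, red LKO_floxCre, solid line and circles replicate A, dashed line and triangles replicate B; lines join members of one liver). LKO_flox A runs below the other three livers along most of the cluster, and LKO_flox B runs among the LKO_floxCre livers.

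miR-483 of the Igf2 locus, another imprinted growth locus, differed between the LKO_flox livers by more than any other of the 181 microRNAs averaging 100 RPM or more there. It stood at 6161 RPM (2026 reads) in LKO_flox A and 5.88 RPM (3 reads) in LKO_flox B, and at 5248 and 3649.9 RPM in LKO_floxCre. The groups overlapped, with LKO_flox A the highest and LKO_flox B the lowest of the 4. miR-675, processed from H19, followed the same order of the LKO_flox livers, at 982 and 47.2 RPM, with 365 and 263 RPM in LKO_floxCre. LKO_flox B thus stood between the LKO_floxCre livers for the chr12qF1 sum and below both of them for both microRNAs of Igf2-H19.

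At the imprinted Gnas locus, miR-296 stood at 328 and 11.8 RPM in LKO_flox and 164 and 181 RPM in LKO_floxCre, with LKO_flox B again the lowest. miR-298 stood at 33.4 and 7.84 RPM and 59.4 and 129 RPM, without overlap but on 4 reads in LKO_flox B. The Sfmbt2 cluster, a large rodent family of repeated hairpins, was low. Only 11 of its 51 members were tested, with a median log2 difference of 0.05, 2 members higher without overlap, against 18.5% of all tested, and none lower. Its most abundant member in these livers, miR-466i, stood at 137 and 19.6 RPM and 19.8 and 122 RPM. The next, miR-466k at 82.1 and 15.7 RPM and 8.47 and 62.9 RPM, miR-669a-1 at 33.4 and 15.7 RPM and 16.9 and 33.3 RPM and miR-467e at 21.3 and 9.80 RPM and 31.1 and 11.1 RPM, showed no common order of the livers.

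Of the most abundant microRNAs other than miR-122, the let-7 family overlapped between the groups in its sum and miR-21 did not. let-7, which restrains growth genes in adult tissue, made up 36.6% and 33.2% of the other reads in LKO_flox and 30.5% and 35.4% in LKO_floxCre. Of its 11 members 3 were higher and 4 lower without overlap, against 18.5% and 15.4% of all tested, and the median log2 difference was -0.0035 (0.16 with libraries centred on their medians). let-7c-2 stood at 44845 and 50038 RPM in LKO_flox and 48831 and 48739 RPM in LKO_floxCre. let-7a-2 stood at 68872 and 58412 RPM and 45791 and 55624 RPM, lower without overlap, as was let-7b at 44049 and 42236 RPM and 35744 and 41180.3 RPM. The reads of let-7c-1 and let-7c-2, and of let-7f-1 and let-7f-2, come from identical mature sequences.

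miR-21, a growth-associated microRNA raised in many injured tissues, stood at 80446 and 112592 RPM in LKO_flox and 182858 and 116563 RPM in LKO_floxCre (log2 0.62 ± 0.82). Both LKO_floxCre livers were above both LKO_flox livers, LKO_floxCre B by a small margin. miR-29a, known to repress collagens, stood at 52621 and 47255 RPM and 32025 and 43599 RPM, slightly lower without overlap. miR-34a, a p53 target, stood at 262 and 243 RPM and 515 and 721 RPM, higher without overlap, whereas miR-221 and miR-155 of the same injury list overlapped.

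Lists of other cell types gave the following values beside the hepatocyte and epithelial lists, and their part in those differences was not tested. The endothelial microRNA miR-126 stood at 27104 and 32137 RPM in LKO_flox and 25176 and 27687 RPM in LKO_floxCre, with overlap. The 6 stellate cell and fibroblast microRNAs made up 2.25% and 0.654% and 1.13% and 1.56%, and the 7 leukocyte microRNAs 1.14% and 0.400% and 0.796% and 1.17%, with no member of either list apart, against 18.5% of all tested apart higher and 15.4% lower. In both lists LKO_flox A was well above LKO_flox B. miR-145, for example, stood at 9105 and 1313 RPM in LKO_flox and 1708 and 3103 RPM in LKO_floxCre, and miR-223 at 4145 and 563 RPM and 1174 and 1246 RPM. Several other members were higher in LKO_flox A than in LKO_flox B as well, though miR-511 of the leukocyte list, at 389 and 618 RPM in LKO_flox and 829 and 547 RPM in LKO_floxCre, had the opposite order. Of the stellate cell and fibroblast list, miR-143 stood at 6176 and 2157 RPM and 2296 and 7414 RPM and miR-199a-1 at 2053 and 962 RPM and 1861 and 1546 RPM. Of the leukocyte list, miR-142 stood at 4662 and 1859 RPM and 4618 and 7603 RPM, miR-146a at 1019 and 532 RPM and 387 and 1294 RPM, and miR-150 at 885 and 302 RPM and 769 and 433 RPM.

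The 3 erythroid microRNAs did not share an order of the livers. miR-451 stood at 4592 and 6939 RPM in LKO_flox and 18550.4 and 4082 RPM in LKO_floxCre, with overlap. miR-144 stood at 192 and 324 RPM and 328 and 984 RPM, higher without overlap, and miR-486 at 173 and 438 RPM and 320 and 288 RPM, highest in LKO_flox B. Muscle microRNAs were near 0, with no read of miR-133a-1, miR-133b, miR-208a or miR-208b and at most 11 reads of any other member, among them miR-206, miR-1-1 and miR-1-2, in any LKO liver. Of the neural list, the 3 miR-124 hairpins had 38, 37 and 45 reads in LKO_flox A and at most 1 read in any other LKO liver. miR-137 of the same list stood at 523 and 514 RPM in LKO_flox and 175 and 237 RPM in LKO_floxCre, lower without overlap. miR-128-1, at 103 and 98.1 RPM and 82.0 and 55.5 RPM, was lower without overlap too, and miR-128-2, at 18.2 and 31.4 RPM and 25.4 and 22.1 RPM, overlapped. The 13 tested microRNAs of the miR-17 to 92 families had a median log2 difference of -0.02, with 2 higher and 3 lower without overlap, against 18.5% and 15.4% of all tested. Those lower were miR-92a-1, at 2497 and 1570.4 RPM in LKO_flox and 820.1 and 1039 RPM in LKO_floxCre, miR-25, at 1305 and 974 RPM and 964 and 802 RPM, and miR-20b, at 30.5 and 13.7 RPM and 8.47 and 3.74 RPM from few reads. miR-93, at 763 and 764 RPM and 732 and 773 RPM, and miR-17, at 751 and 1515 RPM and 1473 and 836 RPM, overlapped. The 7 of the miR-322 cluster, miR-351, miR-503 and miR-542 among them, had a median of 0.14 and none apart, with miR-322 at 617 and 347 RPM and 404 and 462 RPM.

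**Figure D5:**
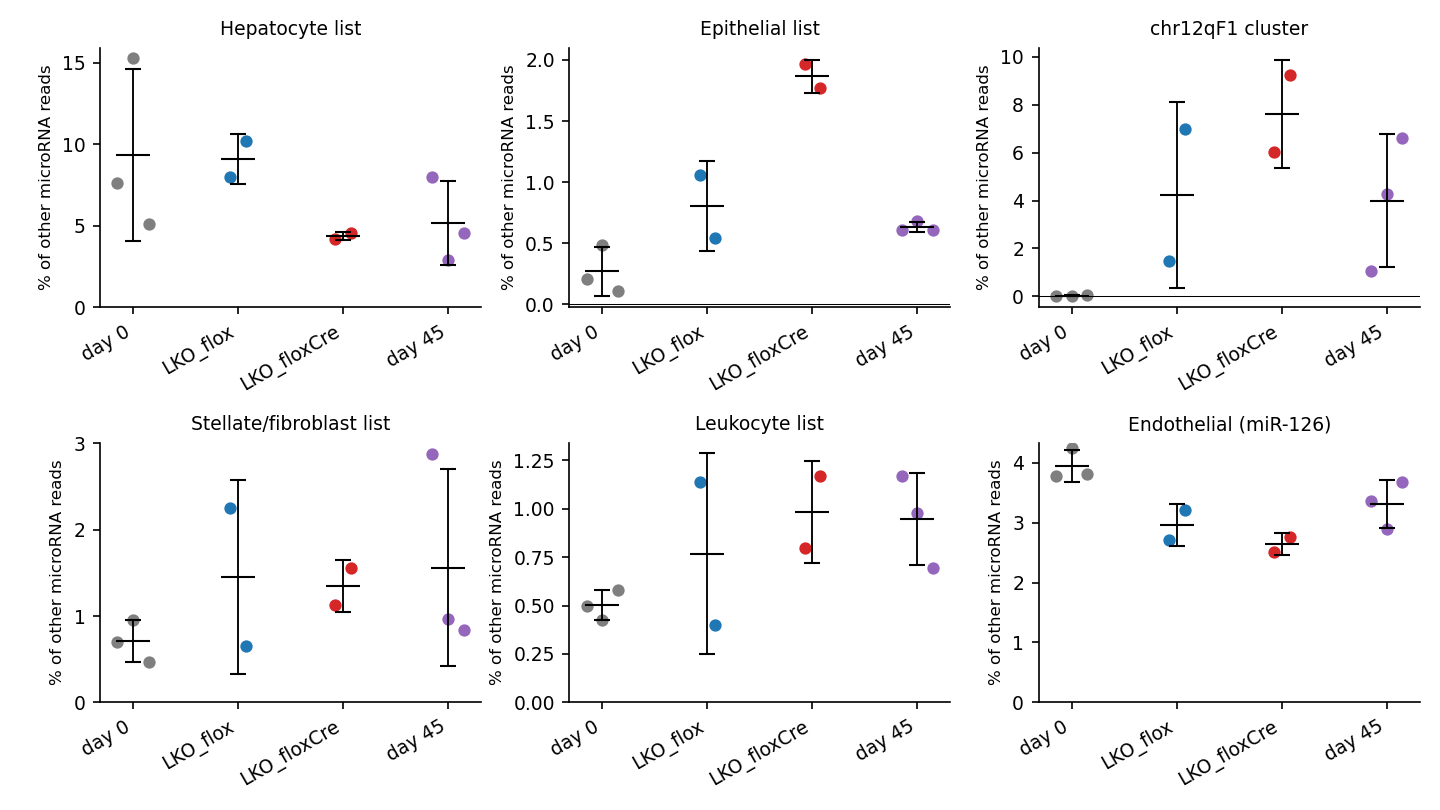
Summed level of 6 lists as a percent of microRNA reads other than miR-122 in each liver of day 0, LKO_flox, LKO_floxCre and day 45, with mean and SD in black. The LKO_floxCre livers stand above all others for the epithelial list and below both LKO_flox livers for the hepatocyte list, while the chr12qF1, leukocyte and stellate or fibroblast lists spread widely within LKO_flox.

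A few microRNAs outside these lists were among the widest gaps without overlap. miR-139, known to be low in several tumours, stood at 654 and 673 RPM in LKO_flox and 204 and 159 RPM in LKO_floxCre (log2 -1.88 ± 0.69, adjusted p = 0.67). miR-10b, from a Hox cluster, stood at 70.0 and 49.1 RPM and 14.1 and 11.1 RPM, on 3 to 25 reads a liver. miR-1198 stood at 109 and 94.2 RPM and 16.9 and 55.5 RPM. miR-330 had the smallest adjusted p (0.42) but only 6 and 3 reads in LKO_flox and none in LKO_floxCre, where a count of 0 allows up to 11.1 RPM, against 18.2 and 5.88 RPM in LKO_flox.

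The second comparison set the LKO_floxCre livers against the 3 uninjected floxed livers. It shares the LKO_floxCre livers with the first. limma called 65 of 259 microRNAs (25.1%), 62 higher (23.9%) and 3 lower (1.16%), so 95.4% of calls were higher. These shares include 36 chr12qF1 and 2 Igf2-H19 microRNAs, whose direction was largely fixed by the filter on low values, and the same holds where 23.9% is given as the background. With libraries centred on their medians the calls were 55 higher and 22 lower, 71.4% higher. The median log2 difference was 0.56, and it was 2.02 over all reads and -0.19 after centring. Genotype, age and Cre treatment all differ or may differ between these groups and cannot be told apart.

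All 36 tested chr12qF1 members were called higher than in uninjected livers, a direction largely fixed by the filter. Those with few reads in uninjected livers could reach the required mean only through other livers where they were high, so the count is a description and supports nothing. They made up 0.0281%, 0.0301% and 0.0338% of the other reads in the 3 uninjected livers, against 6.02% and 9.23% in LKO_floxCre, a ratio of means of 249. In 12 of the 36 the uninjected livers had no read, and in 12 more 1 to 3 reads in all, so the fitted median log2 difference of 7.83 depends on the value added before the log and became 5.86 with those members at their lower bounds. miR-376a stood at 88.0, 35.8 and 48.3 RPM in uninjected livers, against 18203 and 24902 RPM (log2 8.61 ± 0.72, limma adjusted p = 3.1e-08). miR-299, with no read in uninjected livers, stood at 549 and 1694 RPM in LKO_floxCre, where a count of 0 in the shallowest uninjected liver allows up to 13.9 RPM. miR-665 had 1 read there and 1088 in LKO_floxCre, a ratio of 1249 with a counting interval of 224 to 49363.

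Both Igf2-H19 microRNAs were called higher and had no read in the uninjected livers, so the filter fixed their direction as well. Against a floor of 3 reads in the shallowest uninjected liver, the mean of the LKO_floxCre livers was at least 320.2-fold higher for miR-483 and at least 22.6-fold higher for miR-675. miR-296 and miR-298 of Gnas were called higher as well, and miR-298, with 3 reads in all uninjected livers together, could pass the filter only through other livers. Of the 11 tested Sfmbt2 members 1 was, miR-669o, on 2 reads in all uninjected livers together, a share below the 23.9% of all tested. miR-154 and miR-376b, which had at most 3 reads in any uninjected liver, were among the 5 largest rises. The lower call outside the lists, miR-330, had 2, 6 and 5 reads in uninjected livers and none in LKO_floxCre, at least 1.60-fold lower against a floor of 3 reads.

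Of the 10 epithelial members 5 were called higher than in uninjected livers, all of the miR-200 family, against 23.9% of all tested. The sum of the 10-member list was 0.211%, 0.489% and 0.107% in uninjected livers and 1.96% and 1.77% in LKO_floxCre. miR-200c rose from 60.3, 63.4 and 20.1 RPM to 1100.0 and 1021 RPM (log2 4.60 ± 0.77, adjusted p = 6.5e-05), and miR-200a from 394, 523 and 141 RPM to 10389 and 5665 RPM (log2 4.64 ± 0.58, adjusted p = 2.7e-06). Of the stellate cell and fibroblast list 4 of 6 were called higher, against 23.9% of all tested, all from the miR-199 and miR-214 genes. Among them, miR-199a-2 stood at 398, 649.6 and 125 RPM in uninjected livers and 2022 and 1557 RPM in LKO_floxCre. The list sums were 0.697%, 0.955% and 0.467% and 1.13% and 1.56%. Of the leukocyte list 1 of 7 was called higher, miR-146b (log2 3.13 ± 0.86). Of the injury list 1 of 7 was as well, miR-34a (log2 2.18 ± 0.70, adjusted p = 0.023). Both shares are below the 23.9% of all tested.

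The hepatocyte list was lower than in uninjected livers in its sum, 4.18% and 4.55% against 7.64%, 15.3% and 5.12%, without overlap. Of its 14 members 2 were called lower, miR-378 and miR-148a, against 1.16% of all tested. Without overlap 6 were lower, against 6.18%. Over all reads neither miR-378 nor miR-148a was called lower, and the only lower call was miR-330. The direction of the list turned with the scaling, since its median log2 difference was -1.08 per read other than miR-122 and 0.48 over all reads, where the median of all tested was 2.02. miR-378 stood at 4785, 5516 and 4751 RPM in uninjected livers and 2112 and 1394 RPM in LKO_floxCre (log2 -1.54 ± 0.49, adjusted p = 0.022). Its direction depends on the scaling, since over all reads the log2 difference was 0.035, and the call was lost without LKO_floxCre B (adjusted p = 0.21). miR-148a stood at 347, 2047 and 189.6 RPM in uninjected livers (log2 -2.85 ± 0.95, adjusted p = 0.028), and its call was lost without day 0 B (0.15) or without LKO_floxCre A (0.35), which were the highest and the lowest of the 5 livers. miR-22, at 2344, 8510.1 and 1066 RPM in uninjected livers, had a log2 difference of 0.00 ± 1.03, and both LKO_flox livers stood above all 3 uninjected ones.

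The third comparison set LKO_floxCre against day 45, 2 groups with a like share of miR-122. Albumin-Cre genotype differs between these groups, age and time after the vector may differ, and these cannot be told apart. limma called none of 259 (0.0%), with 25 at an unadjusted p under 0.05 (9.65%), 23 of them higher in LKO_floxCre (8.88%), and a smallest adjusted p of 0.051, for miR-330. Without overlap, 43 were higher (16.6%) and 19 lower (7.34%). Day 45 A held the fewest reads of these libraries, and a count of 0 in it allows up to 37.8 RPM.

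The epithelial list did not overlap between LKO_floxCre and day 45 in its sum. It made up 0.609%, 0.679% and 0.612% of the other reads at day 45, against 1.96% and 1.77% in LKO_floxCre, and all 10 members had a positive difference, 5 of them without overlap, against 16.6% of all tested. miR-200a stood at 1915, 2479.7 and 1577 RPM at day 45 and 10389 and 5665 RPM in LKO_floxCre (log2 1.97 ± 0.58, adjusted p = 0.27). miR-483 stood at 75.6, 383 and 0 RPM at day 45, below both LKO_floxCre livers (adjusted p = 0.27). The fitted size is not given, because it rests on the liver with 0 reads and the value added before the log. The chr12qF1 sums, 1.07%, 4.28% and 6.61% at day 45, overlapped with those of LKO_floxCre, as did the hepatocyte sums, 8.03%, 2.93% and 4.59%. Of the 36 tested chr12qF1 members 12 were higher without overlap, against 16.6% of all tested, and none lower. Their median log2 difference was 1.07. The hepatocyte list had a median log2 difference of -0.28 here, against 0.23 for all tested. The median of the stellate cell and fibroblast list was 1.55, above the 1.27 of the epithelial list. Of its 6 members 4 had a positive difference and 3 were higher without overlap, against 16.6% of all tested, while its sums overlapped.

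The livers of a group also differed from each other. Among 181 tested microRNAs averaging 100 RPM or more in that group, the median absolute log2 difference between the LKO_flox livers was 0.76, and among 188 it was 0.58 between the LKO_floxCre livers. The widest in LKO_flox were miR-483, miR-296 and miR-675, higher in liver A, and miR-154, miR-485 and miR-376b, higher in liver B. The widest in LKO_floxCre were miR-24-1 and miR-24-2, higher in liver A, with miR-24-1 at 10177 and 1039 RPM, followed by miR-32, miR-494 and miR-96, higher in liver B, and miR-125b-2, higher in liver A at 22413 and 4068 RPM. Across microRNAs, log2 levels of the LKO_floxCre livers correlated with Pearson's r of 0.94 with each other, and those of the LKO_flox livers with 0.88, while LKO_flox B had r of 0.93 and 0.92 with the LKO_floxCre livers and LKO_flox A 0.87 with each, as a description over microRNAs of single libraries that differ in depth.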

How the data were processed

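Small RNA was sequenced from liver. The authors aligned trimmed reads to mouse microRNAs of miRBase release 15 with Bowtie 0.12.7, allowing 2 mismatches, and deposited RPM with 1 added to each value. mm9 is among the builds in the submitters' processing notes. Here the 1 was subtracted. The low values of each library were whole multiples of one step (within 0.1 reads), taken as 1 read, which gave depths, Wilson intervals and the floor of 3 reads. Reads were used for these only. All 42 sample columns were mapped by label.

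microRNAs other than miR-122 were rescaled to RPM of the other reads. limma 3.58.1 (R 4.3.3, trend, 19 libraries: LKO and floxed days 0, 7, 14, 21 and 45) was fitted to log2(RPM + 1) of those with a mean of at least 10 RPM, with Benjamini-Hochberg adjustment and a threshold of 0.05. Fold changes on that scale understate changes of low microRNAs. The miR-122 share, the chr12qF1 sum and the ratio of miR-122 to the hepatocyte list were compared by exact permutation. Every assignment of the livers was enumerated, with the code checked against scipy 1.17.1. The sums of the other lists were not tested. The fit was tested on simulated data.

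The members and lists were chosen with earlier results of these data known. Named by rule were those called, the 8 widest gaps each way and the 8 most abundant in the LKO comparison, the 5 widest calls each way in the others, the 4 most abundant of each list, and miR-122, miR-21, let-7, miR-483, miR-675, miR-127 and miR-376a. Other list members and the widest differences within a group were named after their values were seen.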

Additional observations from a re-analysis of the deposited data

How the results depend on the processing

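Against LKO_flox, limma called 0 microRNAs under the main setting, over all reads, after median centring, with a pseudocount of 10, with a mean of 100 RPM, with only the 4 LKO livers, and without each LKO liver in turn. Without a filter it called 1, miR-197, which had 7 and 9 reads in LKO_flox and 0 in LKO_floxCre. With limma in place of the permutation test, miR-122 gave a log2 difference of -2.48 (adjusted p = 0.032), now past the threshold. The spread of that fit comes largely from other groups that were less variable than LKO_flox relative to their means. Without LKO_floxCre A its exact permutation p was 0.67, and under the other permutation settings 0.33, the smallest possible there.

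Against uninjected livers, 65 calls became 153 over all reads and 38 with a mean of 100 RPM, where only 172 were tested. Leaving out 1 liver gave 54 to 74. The log2 difference of miR-378 was 0.035 over all reads. Against day 45, 0 calls became 1 over all reads and 1 after median centring, miR-330 in both, and 3 without a filter, which were miR-196b, miR-330 and miR-544. The cause was not tested.

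The letters A and B were not taken as pairs, since same-lettered livers did not deviate together (r = -0.118 across 259 microRNAs). With the letter as a replicate block, the LKO comparison had 0 calls (13 at an unadjusted p under 0.05), that with uninjected livers 66 and that with day 45 0. Crossing the letters, chosen after seeing the data, also gave 0 calls (11 unadjusted). The ratio of miR-122 to the hepatocyte list and the list counts without single livers were likewise added after seeing the data.

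Count models on recovered reads, of which 2 were listed beforehand, were not run, because the deposited RPM are not counts. For miR-122 the spread between livers exceeded the counting intervals, and microRNAs with few reads, such as miR-330 and miR-433, are limited by depth.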
